A study of Mus musculus with 7 samples.

Results

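The circadian clock was followed through 10 of its genes in pancreatic islets of db/db mice. These were Nr1d1, Nr1d2, Arntl (also called Bmal1), Clock, Per1, Per2, Per3, Cry1, Dbp and Tef, taken by symbol, and all 10 were found among the 51912 gene identifiers counted and passed the filter on low counts that left 16504 genes for testing. The set was chosen by measured values of these libraries, since the difference of Nr1d1 between the vector groups was known when clock genes were taken up, so the values of all 10 genes in that comparison are given as a description, with no p for any of them, and the counts of calls there support nothing. All mice were db/db, a genotype without working leptin receptors that leads to obesity and diabetes, and all had received an adeno-associated virus (AAV). The virus encoded green fluorescent protein (AAV-GFP, 4 mice) or adipsin (AAV-Adipsin, 3 mice), the complement protease secreted by fat cells, and each mouse gave 1 library. Islets were taken 4 weeks after the vector was given and were cultured for 12 hours before RNA extraction, so every library comes from islets in culture, at a stage when blood glucose was alike in both groups according to the series text. The time of day of isolation is not given in the sources used here.

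The mammalian clock is a loop of transcription factors with a daily period. ARNTL and CLOCK form a dimer that binds E-box sequences and activates the Per, Cry, Nr1d and Dbp genes. PER and CRY proteins then inhibit the dimer, and the nuclear receptors NR1D1 and NR1D2 (REV-ERB alpha and beta) repress Arntl through sites that they share with activating ROR receptors. DBP and TEF belong to the PAR bZIP family and bind D-box sequences in output genes, among them Per genes. In islets the clock is known for its part in insulin secretion, and mice whose beta cells lack Arntl secrete too little insulin. Cultured tissue keeps running clocks, and medium change, glucocorticoids and cAMP can reset them, in part by inducing Per1.

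These elements can be read in the promoters of the members. The 250 bases before the transcription start were searched on both strands for the E-box CACGTG, the related E-prime box CACGTT, the D-box TTATGTAA or TTACGTAA, the ROR core TAGGTCA or TGGGTCA, and the cAMP response element TGACGTCA. Of the 10 members, 9 had 14 promoter windows in RefSeq (GRCm38.p6), and Per2 had none in the table. Matches were present for 5 members, Nr1d1, Per1, Per3, Cry1 and Tef, and one promoter of each is printed to show the element it holds. Tef and Per1 each had a second window. That of Tef also held a CACGTG, and that of Per1 held no match. Sequences run 5′ to 3′ on the strand of the gene, with the matches in capitals.
Nr1d1, chr11:98775378-98775627, minus strand: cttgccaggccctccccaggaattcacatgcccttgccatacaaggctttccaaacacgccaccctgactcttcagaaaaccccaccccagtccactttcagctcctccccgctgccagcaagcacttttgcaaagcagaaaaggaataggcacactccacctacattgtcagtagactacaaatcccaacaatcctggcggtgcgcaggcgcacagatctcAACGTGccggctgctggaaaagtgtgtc
Per1, chr11:69098699-69098948, plus strand: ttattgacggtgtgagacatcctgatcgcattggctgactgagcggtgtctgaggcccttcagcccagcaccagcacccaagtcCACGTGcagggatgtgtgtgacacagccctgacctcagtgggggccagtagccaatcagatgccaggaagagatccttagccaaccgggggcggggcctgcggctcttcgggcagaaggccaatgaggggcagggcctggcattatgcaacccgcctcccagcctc
Per3, chr4:151044666-151044915, minus strand: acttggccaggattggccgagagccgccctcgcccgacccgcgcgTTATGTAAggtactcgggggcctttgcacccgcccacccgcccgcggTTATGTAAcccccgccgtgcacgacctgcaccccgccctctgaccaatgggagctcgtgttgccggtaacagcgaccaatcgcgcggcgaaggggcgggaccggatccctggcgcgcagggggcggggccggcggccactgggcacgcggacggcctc
Cry1, chr10:85185055-85185304, minus strand: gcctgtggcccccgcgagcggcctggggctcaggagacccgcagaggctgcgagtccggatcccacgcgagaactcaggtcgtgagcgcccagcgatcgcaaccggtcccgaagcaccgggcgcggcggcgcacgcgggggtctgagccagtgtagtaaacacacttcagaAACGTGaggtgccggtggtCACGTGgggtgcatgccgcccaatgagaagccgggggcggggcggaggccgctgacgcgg
Tef, chr15:81811164-81811413, plus strand: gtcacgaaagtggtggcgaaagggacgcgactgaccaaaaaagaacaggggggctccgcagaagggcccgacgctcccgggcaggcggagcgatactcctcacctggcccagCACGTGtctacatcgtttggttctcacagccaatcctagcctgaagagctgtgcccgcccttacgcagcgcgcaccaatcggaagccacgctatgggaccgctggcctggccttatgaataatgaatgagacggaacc
The window of Per3 held 2 D-boxes, 205 and 158 bases before the start, and a D-box was present in 0.931% of all 32851 promoter windows. That of Cry1 held an E-prime box 79 bases and an E-box 60 bases before the start. Per1 had an E-box at 166 bases, Tef at 138 bases, and Nr1d1 an E-prime box at 28 bases, and both E-prime boxes read AACGTG on the strand printed. E-boxes were present in 6.02% of all windows, E-prime boxes in 3.85%, ROR cores in 5.38% and the cAMP element in 1.55%. The matches are a description of these letters and not of binding. For Arntl no match lay in the 250 bases before the start, but the first bases of the transcript held a ROR core, printed with its flanks and with the core in capitals.
Arntl, chr7:113207529-113207558, plus strand: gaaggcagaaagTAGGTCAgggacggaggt

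Total counts ran from 29601707 to 43997400 per library, and the members had between 387 and 5223 counts each, for which counting error alone gives a relative SD of 5.08% at the lowest and 1.38% at the highest. Expression is given as CPM, the counts of a gene relative to the library total after trimmed-mean (TMM) scaling. The 9 beta cell markers summed to 173055 to 203064 CPM in AAV-GFP and 163982 to 204153 CPM in AAV-Adipsin, so both groups carried the RNA of islets. The 12 acinar markers summed to 2693 to 17795 CPM and 3340 to 12857 CPM, and among 4 lymphocyte markers Cd3e had no count in any library. In each group the labels describe replicate 1 with the name of its treatment, whereas the remaining replicates carry a db number. What this difference stands for is not given. It divides the libraries into 2 treatment-named and 5 db-numbered ones, and it is carried through the results below because many genes differed along it.

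Compared per length of exon, the clock genes lay within about an order of magnitude of each other. The repressor Nr1d2 was highest, at 15.5 ± 1.83 CPM per kilobase (SD, n = 7), and Cry1, the core inhibitor, followed at 13.0 ± 1.26. Clock stood at 8.74 ± 1.13, Nr1d1 at 6.79 ± 1.34, Tef at 6.71 ± 0.530 and Dbp at 6.30 ± 0.702. Below these came Per1 at 5.17 ± 1.16, Per2 at 4.44 ± 0.590 and Arntl at 3.86 ± 0.438 (SD, n = 7), with Per3 lowest at 1.52 ± 0.222. The ranges over libraries overlapped between all neighbours in this order except Cry1 and Clock, and Arntl and Per3. Nr1d2 lay at the 81.7th percentile of all tested genes on this scale and Per3 at the 33.0th. The lower part of the order depends on the length used. With the longest transcript in place of all exons, Arntl was at 7.27 and Per3 at 2.44 CPM per kilobase, and Nr1d1 moved from place 4 to 6.

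**Figure D1:**
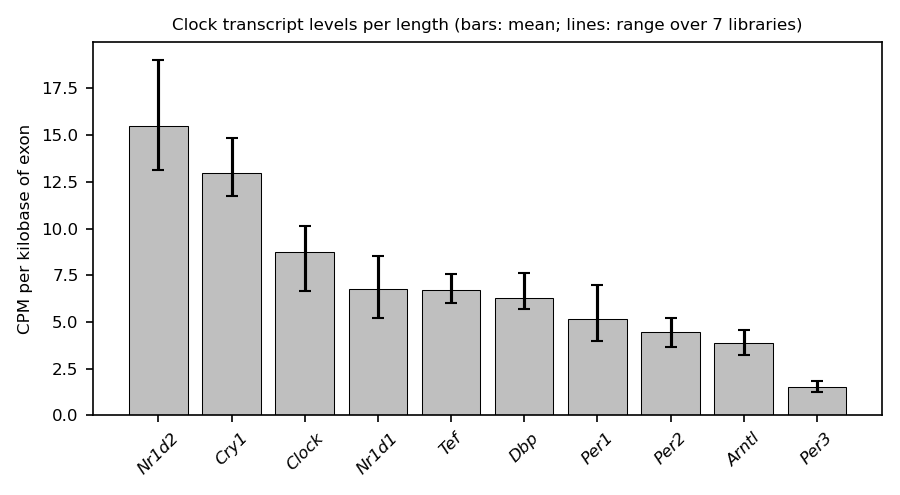
Mean level of each clock gene in CPM per kilobase of exon over all 7 libraries, with lines from the lowest to the highest library. Nr1d2 stands highest at 15.5 and Per3 lowest at 1.52, and most neighbours have overlapping ranges.

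Over the 7 libraries the members differed in how much they varied. The coefficient of variation was smallest for Tef at 7.90% and Cry1 at 9.74%, and largest for Nr1d1 at 19.7% and Per1 at 22.5%. The 7220 tested genes in the same range of mean CPM had a median coefficient of 9.58%, with quartiles of 6.80% and 13.4%. The highest library exceeded the lowest by 1.75 times for Per1, by 1.65 times for Nr1d1 and by 1.26 times for Tef.

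Of the 2 REV-ERB genes, Nr1d1 separated by vector and Nr1d2 did not. Nr1d1, the REV-ERB alpha receptor on chromosome 11 (98767932 to 98775333 of GRCm38, minus strand), stood at 18.1, 15.98, 16.9 and 20.6 CPM in AAV-GFP replicates 1 to 4 and at 23.0, 26.3 and 25.3 CPM in AAV-Adipsin replicates 1 to 3. All 3 AAV-Adipsin libraries lay above all 4 AAV-GFP libraries. The means were 24.9 ± 1.71 (SD, n = 3) and 17.9 ± 2.00 (SD, n = 4), a fitted ratio of 1.39 and a log2 fold change of 0.47 (SE 0.11). Within the pair of treatment-named libraries the difference in log2 CPM was 0.34, and among the db-numbered libraries 0.54. Nr1d2, which encodes the sister receptor REV-ERB beta, had 71.0, 103, 84.0 and 76.5 CPM in AAV-GFP and 82.1, 83.8 and 86.1 CPM in AAV-Adipsin, and all AAV-Adipsin values lay inside the AAV-GFP range. Its log2 fold change was 0.01 (SE 0.12).

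Nr1d1 lies tail to tail with Thra, a thyroid hormone receptor gene on the opposite strand, and 263 bases or 8.55% of its exons are shared. The strand setting of the counting is not given, so reads there cannot be assigned with certainty. Thra itself had a mean of 45.4 ± 6.89 CPM in the AAV-GFP group (SD, n = 4) and of 46.4 ± 8.43 CPM in the other (SD, n = 3), with a log2 fold change of 0.03 (SE 0.15). The 5 mesenchymal markers summed to 81.2, 38.2, 60.8 and 262 CPM in AAV-GFP replicates 1 to 4 and to 106, 140 and 132 CPM in AAV-Adipsin replicates 1 to 3, and the 5 macrophage markers to 57.5 to 92.1 CPM and 67.7 to 186 CPM. The 5 endothelial markers summed to 307 to 496 CPM and 372 to 461 CPM. The groups overlapped in these 3 sums, although 5 of 5 markers of each list had a fold change above 0 (medians of 0.23, 0.66 and 0.22 on the log2 scale). The 4 lymphocyte markers, of which 2 were abundant enough to test, summed to 2.25 to 3.14 CPM and 3.19 to 7.58 CPM, without overlap. All 12 acinar markers had a fold change below 0 (median -0.35). edgeR called 0 markers of these 5 lists, with 1 lymphocyte marker at an unadjusted p under 0.05, and their part in the Nr1d1 difference was not tested. In bulk tissue, fewer cells of a type and less RNA per cell cannot be told apart.

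The activators did not separate by vector. Arntl, the partner whose transcription REV-ERB receptors repress, had 27.0, 29.8, 34.4 and 28.1 CPM in AAV-GFP and 24.1, 28.4 and 31.5 CPM in AAV-Adipsin, a log2 fold change of -0.09 (SE 0.12). Clock had 113, 139, 129 and 91.3 CPM against 117, 119 and 131 CPM, at 0.05 (SE 0.14). The values of both genes overlapped between the groups, and the sign of each fitted difference turned under at least 1 alternative.

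Among the inhibitors, Cry1 and Per3 had lower means in AAV-Adipsin, and Per1 and Per2 lay near 0. Cry1, whose protein is a strong repressor of the dimer, stood at 40.8, 46.9, 49.6 and 46.6 CPM in AAV-GFP and 39.7, 39.3 and 40.4 CPM in AAV-Adipsin. The AAV-Adipsin libraries lay below all AAV-GFP libraries, but the treatment-named AAV-GFP library, at 40.8 CPM, lay close to the highest of them, at 40.4 CPM. Its means were 39.8 ± 0.550 (SD, n = 3) and 46.0 ± 3.68 (SD, n = 4), with a log2 fold change of -0.21 (SE 0.09). The difference was -0.04 in the treatment-named pair and -0.26 among the db-numbered libraries. Per3, a period gene that is dispensable for rhythm in mice, had 15.0, 17.8, 13.6 and 17.0 CPM against 14.1, 12.3 and 12.6 CPM, at -0.29 (SE 0.12), with differences of -0.09 in the pair and -0.36 among the others. In Per3 the lowest AAV-GFP library lay below the highest AAV-Adipsin library. Per1, the light- and hormone-inducible period gene, had 39.2, 28.7, 26.1 and 22.4 CPM against 37.3, 24.3 and 25.8 CPM. Its mean was 29.1 CPM in both groups and the log2 fold change 0.00 (SE 0.21). Per2, which is needed for a stable rhythm, had 25.4, 30.4, 28.4 and 22.2 CPM against 29.2, 21.6 and 24.8 CPM, at -0.08 (SE 0.14).

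The PAR bZIP output factors overlapped between the vector groups. Dbp, a transcript with one of the widest daily swings in many tissues, had 20.8, 17.9, 17.7 and 18.1 CPM in AAV-GFP and 22.8, 17.0 and 17.7 CPM in AAV-Adipsin, at 0.04 (SE 0.12). Tef had 52.3, 59.6, 50.02 and 56.3 CPM against 53.7, 50.1 and 47.3 CPM, at -0.11 (SE 0.09). Dbp shares 539 bases, or 18.01% of its exons, with Sphk2, a sphingosine kinase gene on the opposite strand, whose log2 fold change was -0.05 (SE 0.10).

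Of the 10 members, 0 passed the threshold in edgeR's quasi-likelihood test adjusted over all genes, against 0.00606% of the 16504 genes tested, and 3 had an unadjusted p under 0.05, where 1.16% of all genes did. DESeq2 called 0 members and limma-voom 0, where DESeq2 called 0.0242% of all genes. The groups did not overlap for 2 members, Nr1d1 and Cry1, against 2.73% of all genes (1.16% with AAV-Adipsin higher and 1.58% with it lower). Since this comparison guided the choice of members, nothing is read from these shares. The median log2 fold change of the 10 was -0.04, with 5 above and 5 below 0, and that of all genes tested was -0.01.

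**Figure D2:**
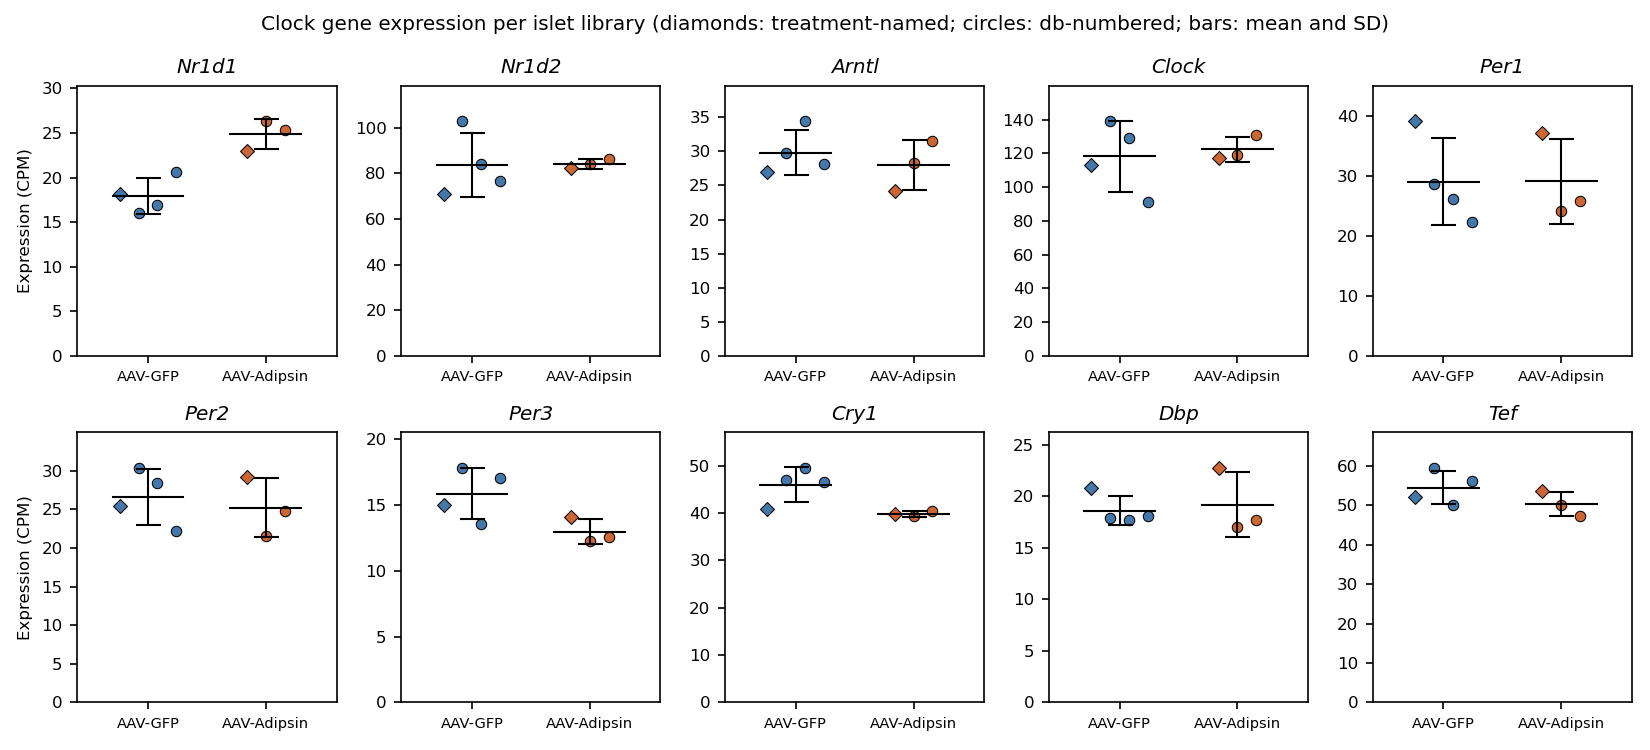
Expression of each clock gene in CPM on axes that start at 0, with 1 point per library, AAV-GFP on the left and AAV-Adipsin on the right of each panel, and the mean and SD in black. Diamonds are treatment-named and circles db-numbered libraries. The points of Nr1d1 do not overlap between vectors, and in the panel of Per1 both diamonds, at 39.2 and 37.3 CPM, stand above all circles.

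By description style 1 clock gene passed the test. The rule for the members does not name this comparison, although they were chosen with earlier results of these libraries known. Per1 was higher in the 2 treatment-named libraries, at 38.2 ± 1.35 CPM (SD, n = 2), than in the 5 db-numbered libraries, at 25.5 ± 2.35 CPM (SD, n = 5), a fitted ratio of 1.51. Its log2 fold change, with the vector in the model, was 0.59 (SE 0.10), with an adjusted p of 0.0142 in edgeR and 4.99e-05 in DESeq2. It was higher in 2 of 2 libraries, by 0.61 within AAV-GFP and by 0.57 within AAV-Adipsin. The call did not hold once AAV-GFP replicate 1 (adjusted p = 0.236 by edgeR) or AAV-Adipsin replicate 1 (0.196) was left out, each of which leaves a lone treatment-named library whose spread is taken from the others, nor without AAV-Adipsin replicate 2 (0.0614) or 3 (0.0505). The fold change itself stayed between 0.54 and 0.63.

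Dbp lay on the threshold. It was at 21.8 ± 1.43 CPM (SD, n = 2) in the treatment-named and 17.7 ± 0.409 CPM (SD, n = 5) in the db-numbered libraries, without overlap. On the log2 scale it was 0.30 higher (SE 0.08), at an adjusted p of 0.0502 in edgeR, 0.0326 in DESeq2 and 0.0465 in limma-voom. Over 15 alternatives it passed in 7, with an adjusted p from 0.0142 (edgeR, without AAV-GFP replicate 4) to 0.437 (edgeR, without AAV-Adipsin replicate 1). Sphk2, which shares bases with it, was at 0.18 (SE 0.08) and did not pass (edgeR adjusted p = 0.201). Arntl was lower and did not pass, with 27.0 and 24.1 CPM in the treatment-named libraries against 28.1 to 34.4 CPM in the others, at -0.25 (SE 0.10, edgeR adjusted p = 0.155, or 0.0289 without AAV-GFP replicate 4). The other members lay between -0.18 (SE 0.12) for Nr1d2 and 0.12 (SE 0.15) for Per2, and Nr1d1 was at -0.06 (SE 0.11, edgeR adjusted p = 0.740). Thra, which shares bases with Nr1d1, was higher in the treatment-named libraries, at 0.40 (SE 0.08, edgeR adjusted p = 0.0257). With both of these libraries kept, Thra lost the edgeR call on dropping AAV-GFP replicate 3 (0.0623), AAV-Adipsin replicate 2 (0.0941) or 3 (0.0765). Dropping the treatment-named library of either vector leaves a lone one, so those fits cannot show whether the call holds. The fold change of Thra was then 0.43 (AAV-GFP library dropped) and 0.37 (AAV-Adipsin library dropped).

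Thus 1 of the 10 members passed in this comparison, where 9.79% of all genes tested did, a share near that of the members. In the direction of Per1, higher in treatment-named libraries, 4.22% of all genes passed, and in the other direction 5.57%. DESeq2 called 2 members, against 15.3% of all genes. The members whose libraries did not overlap were Per1, Dbp and Arntl, 3 of 10, against 37.6% of all genes. The median of the members was -0.02 and that of all genes -0.01 on the log2 scale. Values of cell type markers along the same division stand beside this. Every marker tested was lower in the treatment-named libraries among 12 acinar (median log2 fold change -1.14), 4 duct (-0.98), 5 macrophage (-0.64), 5 mesenchymal (-0.55) and 5 endothelial ones (-0.24), and edgeR called 0 of them, with 5 at an unadjusted p under 0.05. The duct markers summed to 31.5 and 44.7 CPM in the treatment-named and 54.7 to 135 CPM in the db-numbered libraries, and the acinar markers to 3896 and 5177 CPM against 2693 to 17795 CPM. The 5 alpha cell markers summed to 9417 and 9440 CPM against 6414 to 8881 CPM, with 3 above and 2 below 0 and 0 called. All 3 delta cell markers lay below 0 (median -0.20), as did the 2 lymphocyte markers tested (-0.49). The 1 PP cell marker, Ppy, lay above 0, at 0.42, and edgeR called 0 in these 3 lists. Of 9 beta cell markers 6 lay above and 3 below 0. Iapp, Ucn3 and Slc2a2 were called higher by edgeR, and G6pc2 was lower without overlap but did not pass, at -0.17 (SE 0.07). The 3 called markers kept the call in 1 to 3 of the 7 fits that left out a library, and without AAV-GFP replicate 1 the edgeR adjusted p was 0.162, 0.148 and 0.169. The part of these cells in the Per1 difference was not tested.

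**Figure D3:**
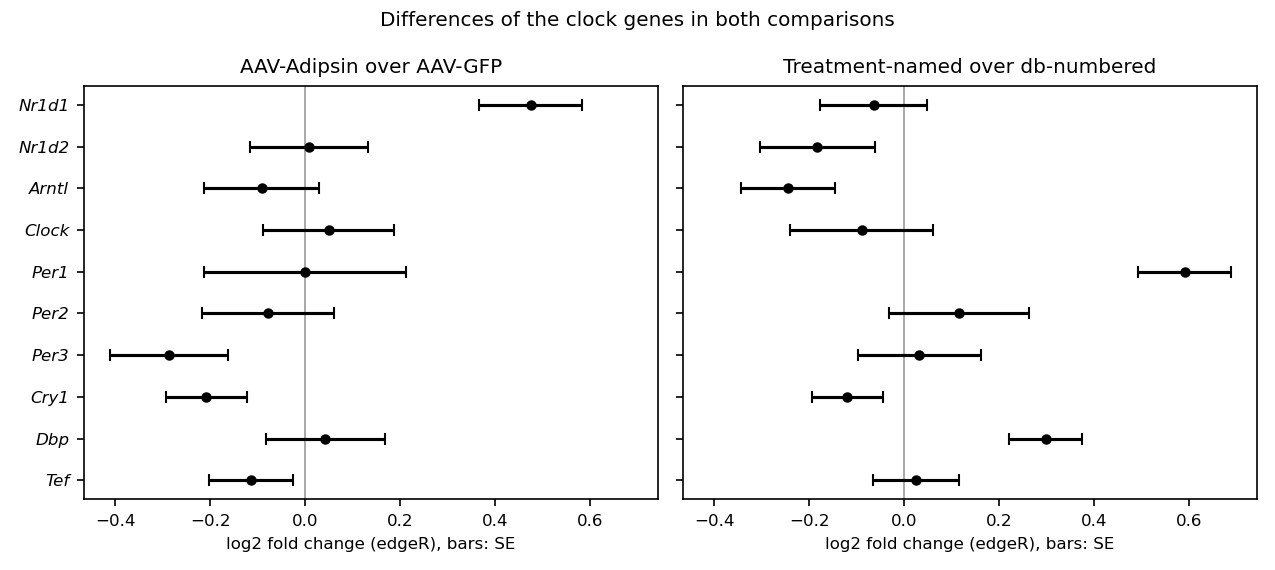
Log2 fold change with its SE for each clock gene, AAV-Adipsin over AAV-GFP on the left and treatment-named over db-numbered libraries on the right. Nr1d1 lies farthest from 0 on the left at 0.47, and Per1 farthest on the right at 0.59.

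The rest of the clock machinery was read from lists of related genes. By vector, 0 of 55 tested genes in 5 lists passed in edgeR, against 0.00606% of all genes. At an unadjusted p under 0.05 there were 4 of 55, where 1.16% of all genes passed, and DESeq2 and limma-voom called 0. The lists too were chosen with earlier results of these libraries known, so nothing is read from these shares. Wee1, a cell cycle kinase under clock control in liver, had a mean of 17.5 ± 1.12 CPM with AAV-Adipsin (SD, n = 3), below the 22.3 ± 3.03 CPM with AAV-GFP (SD, n = 4), and the glucocorticoid-induced Tsc22d3 at 33.3 ± 1.40 against 39.0 ± 3.57 CPM. For both genes the difference was close to 0 in the treatment-named pair, at -0.04 and -0.01, against -0.46 and -0.30 among the db-numbered libraries. Timeless, a replication fork protein related to a fly clock gene, stood at 5.44 ± 0.360 (SD, n = 3) against 3.92 ± 0.749 CPM (SD, n = 4), at 0.47 (SE 0.18), with 0.07 in the pair and 0.64 among the others. Bhlhe41, the DEC2 repressor, was at -0.18 (SE 0.08). Among the genes with the smallest p in the other lists, Sirt1 lay at -0.09, Por at -0.10, Mt2 at -0.40, Fosb at -0.52 and Fos at 0.29, and none of them passed in edgeR (unadjusted p of 0.0986 for Fosb and above that for the others).

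Along the description style, 7 of the same 55 genes passed in edgeR, against 9.79% of all genes, 2 higher and 5 lower in the treatment-named libraries. Npas2, a paralogue of Clock that can replace it in the dimer, had 14.6 and 14.8 CPM in the treatment-named libraries and 28.8, 41.1, 40.6, 50.3 and 60.3 CPM in the db-numbered ones. Every db-numbered library exceeded both others, and the log2 fold change was -1.59 (SE 0.20, edgeR adjusted p = 0.00584). Cry2, the second cryptochrome, had 167 and 167 CPM against 109 to 141 CPM, at 0.44 (SE 0.09, edgeR adjusted p = 0.0279). Btrc, a ubiquitin ligase subunit that marks PER proteins for degradation, was higher, at 0.31 (SE 0.07, edgeR adjusted p = 0.0328), and Pparg, a lipid-sensing nuclear receptor, lower, at -0.45 (SE 0.08, edgeR adjusted p = 0.0164). Clock, for which Npas2 can stand in, was at -0.09 (SE 0.15) in this comparison.

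Of 10 glucocorticoid-responsive genes 2 passed as lower in the treatment-named libraries, against 5.57% of all genes, and 0 as higher, against 4.22%. Those called were Nfkbia, an inhibitor of NF-kB, with 48.8 and 47.9 CPM against 135 to 171 CPM, at -1.65 (SE 0.11, edgeR adjusted p = 0.000392), and the metallothionein Mt2, at -0.66 (SE 0.17, edgeR adjusted p = 0.0491). Mt2 passed in 2 of 8 alternatives that kept all libraries, DESeq2 (0.00193) and limma-voom (0.0482), and not in the other 6, all edgeR fits with adjusted p from 0.0513 to 0.0941. Klf9, a transcription factor gene induced by glucocorticoids, was higher without overlap and did not pass, at 0.26 (SE 0.13, edgeR adjusted p = 0.223). Fkbp5 and Tsc22d3, classical glucocorticoid targets, were at 0.07 (SE 0.08) and -0.08 (SE 0.09) and did not pass (edgeR adjusted p = 0.622 and 0.597). Of 10 cAMP- and activity-responsive genes, only Junb passed, at -0.98 (SE 0.20, edgeR adjusted p = 0.0291), lower, while Crem, at 0.31, and Nr4a2, at 0.30, were higher without overlap and did not pass (edgeR adjusted p = 0.0654 and 0.0705). These list medians were -0.10 and -0.09. The clock output genes, the list that holds Pparg, had 1 above and 11 below 0 (median -0.20), with 1 of 12 called by edgeR, against 9.79% of all genes. Over all genes tested the median was -0.01, and the median size of a fold change, whatever its sign, was 0.21 on the log2 scale. The lists that hold Npas2 and Btrc had medians of 0.05 and 0.06. Of the 7 genes called in the 5 lists, only Nfkbia kept its call in all 7 fits that left out a library (largest edgeR adjusted p = 0.0292). Npas2 lost it when replicate 1 of AAV-GFP (0.0673) or of AAV-Adipsin (0.123) was left out, and the other 5 kept it in 1 to 3 of the 7. Without AAV-GFP replicate 1 the edgeR adjusted p was 0.195 for Cry2, 0.305 for Btrc, 0.265 for Pparg, 0.376 for Mt2 and 0.259 for Junb, and without AAV-Adipsin replicate 1 it was 0.323, 0.300, 0.123, 0.324 and 0.278. Without AAV-Adipsin replicate 2 it was 0.0938, 0.109, 0.0569, 0.123 and 0.0833, and without AAV-Adipsin replicate 3 it was 0.0810, 0.0734, 0.0510, 0.0579 and 0.0753. AAV-GFP replicate 2 decided Btrc (0.0507), replicate 3 Cry2 (0.0577), Btrc (0.0739) and Mt2 (0.0783), and replicate 4 Mt2 (0.0933).

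**Figure D4:**
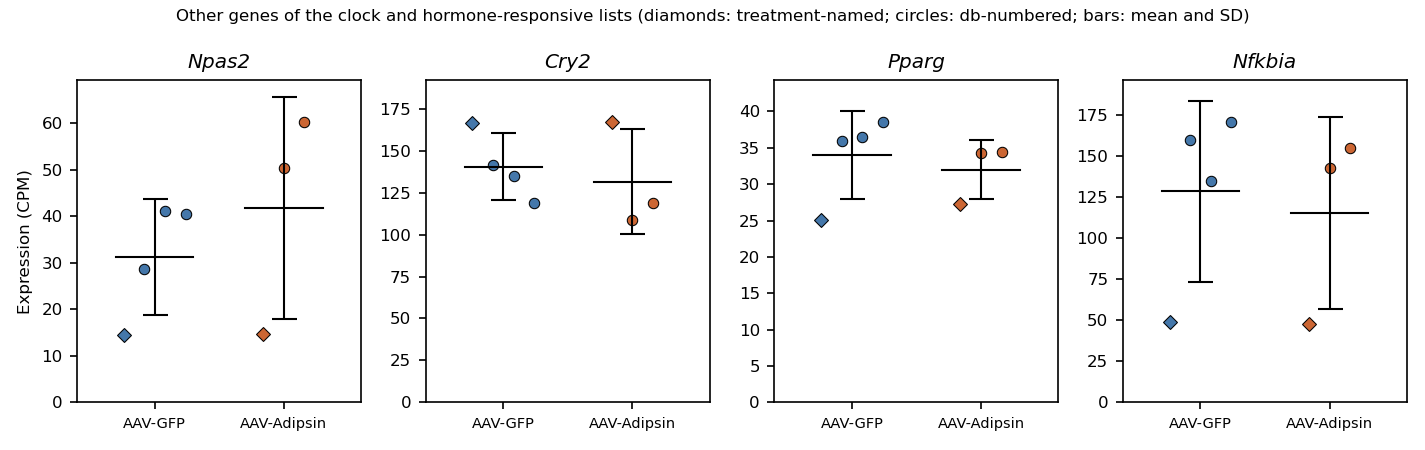
Expression in CPM of Npas2, Cry2, Pparg and Nfkbia per library, on axes that start at 0, with the mean and SD of each vector group in black. Diamonds (treatment-named libraries) of Npas2 lie at 14.6 and 14.8 CPM and those of Nfkbia at 48.8 and 47.9 CPM, below all circles (db-numbered libraries) of the same panel.

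Finally, the members were compared with each other over the 7 libraries on the log2 CPM scale. None of the 45 pairs passed an exact two-sided permutation test of Pearson's r over all orders of the libraries, adjusted over the 45. The closest pair was Per3 and Tef (r = 0.93, exact permutation p = 0.00317, adjusted 0.143, and rho = 0.86, exact p = 0.0238, adjusted 0.357). Their r was 0.95 among the 5 db-numbered libraries and 0.73 without the 2 libraries farthest from the median of Per3. Per1 and Dbp had r = 0.87 (exact permutation p = 0.0310, adjusted 0.616) and rho = 0.57 (exact p = 0.2, adjusted 0.667). Without the treatment-named libraries, which are also the 2 farthest from the median, it was 0.04, so this relation rests on those libraries. Arntl and Dbp ran in opposite directions with r = -0.77 (exact permutation p = 0.0411, adjusted 0.616) and rho = -0.79 (exact p = 0.0480, adjusted 0.440). Their r was -0.57 without the 2 libraries farthest in Arntl and 0.08 among the db-numbered libraries.

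The Nr1d1 receptor gene showed no relation past the test with its sister or its target over the 7 libraries. Each of its values over the 7 libraries contains its vector difference, which was known when the members were chosen. The p of the Nr1d1 pairs therefore support nothing. Nr1d1 and Nr1d2 had r = -0.21 (exact permutation p = 0.690, adjusted 0.852) and rho = -0.18 (exact p = 0.713, adjusted 0.880). Nr1d1 and Arntl had r = -0.30 (exact permutation p = 0.522, adjusted 0.852) and rho = -0.21 (exact p = 0.662, adjusted 0.851). Nr1d1 and Cry1 had r = -0.77 (exact permutation p = 0.0675, adjusted 0.711) and rho = -0.89 (exact p = 0.0123, adjusted 0.277), a value that contains the vector difference of both genes, with r = -0.92 among the db-numbered libraries and -0.65 without the 2 farthest in Nr1d1. Taken as deviations from the vector group means, which removes that difference, their r was -0.21. On these deviations the r of Nr1d1 with the other members ran from -0.96 (Per2) to -0.06 (Arntl). It was -0.81 with Clock and -0.61 with Nr1d2, and these values were not tested. Nr1d2 and Clock did not pass either, with rho = 0.96 (exact permutation p = 0.00278, adjusted 0.125) and r = 0.72 (exact p = 0.0843, adjusted 0.711). Their r was 0.79 among the db-numbered libraries and 0.98 without the 2 farthest in Nr1d2.

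**Figure D5:**
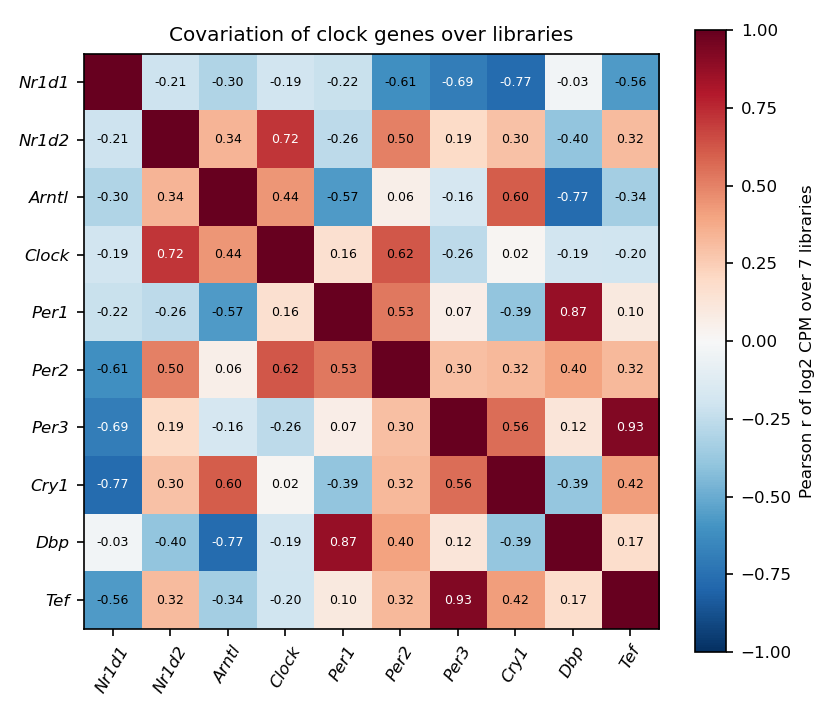
Pearson r of log2 CPM over the 7 libraries for each pair of clock genes, from -1 (blue) to 1 (red), with the value in each cell. Per3 with Tef stands highest at 0.93, and Nr1d1 is negative with all 9 other genes, most with Cry1 at -0.77.

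Outside the list, the genes whose values ran most closely with 3 of the members were found among 11918 genes by Pearson r over the 7 libraries, as a description. For Nr1d1 these were Timp3 (r = 0.99), Pcdh12 (0.98), Slit3 (0.97), Vgll4 (0.95) and Cald1 (0.95), with log2 fold changes by vector from 0.13 to 0.69. Genes picked for running with Nr1d1 share the direction of its vector difference through that choice, so these fold changes support nothing. For Arntl they were Slc38a2 (r = 0.99), Fam167a (0.98), Gng12 (0.98), Brd7 (0.98) and Serpina7 (0.96), and for Dbp Galr1, Arsa, Slc7a4, Aard and Rrp1 (r = 0.99 for each). In the treatment-named libraries those like Arntl were lower (log2 fold changes from -0.52 to -0.11) and those like Dbp higher (0.17 to 1.52). Arntl and Dbp themselves differed in these directions, so the choice brings them along and they too support nothing. No p is attached to values picked as the highest of so many, and no member of the clock list appeared among these 15.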

How the data were processed

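The authors deposited raw counts of reads per gene for 7 libraries in 1 table. The submitters' processing notes name STAR and mm10 (GRCm38). For its version, the counting program, the strand setting and the annotation release: not given in the sources used here. The kit was a stranded one for mRNA, per the labels' protocols. Of 51912 identifiers, 51719 matched GENCODE mouse release 21 (GRCm38) for symbols, coordinates and lengths.

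Counts were filtered with filterByExpr, scaled by TMM and tested with edgeR 4.0.16 (R 4.3.3) by robust quasi-likelihood F tests, two-sided, with Benjamini-Hochberg adjustment over 16504 genes and a threshold of 0.05. The model held the vector alone, or the vector and description style. SE was the size of the log2 fold change over the square root of F. DESeq2 1.42.0 and limma 3.58.1 (voom) were alternatives. Log2 CPM carried a prior count of 2. The tests were checked on simulated counts in which 200 genes changed by more than any member did here. Every gene had the same dispersion there, and the libraries differed in nothing else. The check therefore does not show how the tests treat smaller changes or counts that also differ by description style. Each mouse was a separate biological replicate per the series text. Intervals of counting error do not cover other error, since reads carry no molecular identifiers.

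The members and lists were chosen with earlier results of these data known. All 10 members are named. From each other list the text names up to 6 genes past the threshold by description style and the 2 with the smallest p by vector, as well as Fkbp5, Klf9, Crem and Nr4a2, Thra and Sphk2 for their relation to members, and 4 beta cell markers, which were added after their values were seen. The 5 genes most like Nr1d1, Arntl and Dbp had a mean log2 CPM of at least 1 and a named symbol. No library was left out. A gene that the rule would name is not reported here. Values within each description style were added after seeing the data. An interaction with the vector would rest on 1 treatment-named library per vector and is not reported.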

Additional observations from a re-analysis of the deposited data

Results flagged for a closer look

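Dbp in AAV-GFP replicate 1, at 20.8 CPM, lay apart from the other 3 AAV-GFP libraries, at 17.7 to 18.1 CPM, by more of the group's range than Dixon's critical value for 4 libraries allows. It is the treatment-named library of its group, and the treatment-named AAV-Adipsin library was also the highest of its group, at 22.8 CPM. About 1 in 20 such groups is expected to pass this rule by chance, and 10 genes were examined.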

How the results depend on the processing

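By vector, 0 of the 10 members passed under each of the 18 alternatives. Nr1d1 stayed positive in all 17 refits (0.44 to 0.55), and Cry1 (-0.25 to -0.17), Per3 (-0.36 to -0.22) and Tef (-0.17 to -0.06) stayed negative. For Nr1d1 and Cry1 the vector groups did not overlap, so leaving out a library could hardly turn the sign. The members were also chosen with the Nr1d1 difference known, so nothing is read from these signs. Within the treatment-named pair alone Tef was at 0.04 and Nr1d2, Per2, Per3 and Cry1 moved by more than their SD, to 0.21, 0.20, -0.09 and -0.04. The count over all genes, 1, was 0 without a filter on low counts, with limma-voom or without both treatment-named libraries, 4 with DESeq2, and 0 to 1 when a replicate was left out. By description style, the count over all genes, 1616, was 2528 with DESeq2, 2975 at an adjusted p of 0.10, and 39 to 4348 when a replicate was left out (39 without AAV-GFP replicate 1, 671 without 3 and 4348 without 4, with 55, 346 and 501 when AAV-Adipsin replicate 1, 2 or 3 was dropped). The count of members, 1, was 2 with RLE factors, library totals alone, a filter of 1 CPM in 3 libraries, DESeq2, limma-voom, the vector left out of the model or an adjusted p of 0.10, and 0 to 3 when a replicate was left out (3 without AAV-GFP replicate 4); the cause was not tested. Fitted differences near 0 turned sign: Per3 was at -0.0084 with the vector left out of the model, and over fits without 1 replicate Nr1d1 ran from -0.17 to 0.025, Per2 from -0.085 to 0.33, Per3 from -0.10 to 0.18 and Tef from -0.080 to 0.14. The r of Arntl and Dbp turned to 0.083 without the treatment-named libraries. With the replicate number as a block, 1 gene and 0 members passed by vector. Same-numbered libraries correlated in their deviations from the group means at 0.66, -0.01 and 0.01 for replicates 1 to 3, so the numbers were not taken as pairs, and the description style coincides with replicate 1, so no block could be fitted to it. Each member had 387 counts or more in every library, so counting error alone limits its precision to a relative SD of 5.08% or less.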
